A study of Mus musculus with 8 samples.

Results

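The genes described here are 10 genes of the endocannabinoid system: 9 enzymes that make or break down its lipid messengers, and Cnr2, which encodes the cannabinoid 2 receptor (CB2R). They were chosen by name and role, not by any measured value, though with earlier results of these data known. Every non-control probe of the array whose accession maps to one of them was taken, which gave 14 probes out of 28331 probes named on the array, for 10 of 21368 named genes. Global mRNA of isolated hepatocytes was measured on 1-colour Agilent mouse arrays in 4 hCNR1+/+ and 4 hCNR1-/- samples, 1 array each, as the sample labels give them. A legend of the study gives fewer samples per genotype without saying which, so all 8 arrays were used. All 8 samples came from male mice of 12 to 14 weeks on a standard diet. The hCNR1-/- samples carry the strain label CNRO Alb-Cre and came from a cross of CNR1 flox/flox mice with mice that express Cre recombinase under the albumin promoter, which is active in hepatocytes. The hCNR1+/+ samples carry the strain label CNRO and came from littermates described as controls. The sources used here do not say which floxed alleles these littermates had, nor that each array stands for a mouse of its own, so the p-values below measure the spread between samples, which may be partly technical. No injected or treated animals are among them, so each comparison below asks how the resting endocannabinoid genes differed when the hepatocytes lacked the cannabinoid 1 receptor (CB1R).

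Endocannabinoids are lipids made on demand from membrane phospholipids. Anandamide (AEA) is one of the N-acylethanolamines, which are cut from N-acyl phosphatidylethanolamines, and 2-arachidonoylglycerol (2-AG) is cut from diacylglycerol. Both activate CB1R and CB2R and are then hydrolysed, AEA mainly by fatty acid amide hydrolase and 2-AG mainly by monoacylglycerol lipase. In the liver, hepatocyte CB1R is known for promoting fat synthesis, while CB2R is known mostly from immune cells.

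The deleted gene, Cnr1, has 1 probe on the array. In both genotypes it was well above background on 0 of 4 arrays, with deposited intensities of 3.1 to 8.63 in hCNR1+/+ and 3.41 to 4.07 in hCNR1-/- samples. The probe thus gave no check of the genotype labels, and no fold change is given for Cnr1. All 12 hepatocyte markers on the array were well above background on all 8 arrays. Their mean log2 signal ran from 7.73 to 8.44 in hCNR1+/+ and from 7.70 to 8.06 in hCNR1-/- samples. Here and below, a log2 signal is that of the background-corrected intensity of a probe minus the 75th percentile of all non-control spots on the same array, so that 0 is that percentile. It serves to compare 1 probe between arrays and does not rank probes against each other. The dimmest array was hCNR1-/- replicate 4, whose 75th percentile was an intensity of 29.3, against 62.0 to 139 on the other 7 arrays. The 62.0 was that of hCNR1+/+ replicate 4. Replicate 4 also had the lowest mean correlation with its own group in each genotype, 0.964 in hCNR1+/+ and 0.942 in hCNR1-/- samples. On hCNR1-/- replicate 4 no probe was called well above background below a log2 signal of −0.85, a limit that lay between −3.27 and −1.90 on the others. The hCNR1+/+ arrays lay in one row of the slide and the hCNR1-/- arrays in the other, so the effects of row and of genotype cannot be told apart.

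Of the 10 genes, 9 were bright enough to be tested, with a probe that 4 or more of the 8 arrays called well above background. None of the 9 passed the test between genotypes. With limma, 0 had a Benjamini-Hochberg adjusted p below 0.05 over the 11072 genes tested, and 0 had an unadjusted p below 0.05. Among all genes tested, 1.30% were called lower and 2.94% higher at the adjusted threshold, and 6.92% lower and 14.7% higher at the unadjusted threshold. For 0 of the 9 did the arrays of the genotypes separate without overlap, as they did for 17.8% of all genes tested. The fitted log2 fold change, hCNR1-/- minus hCNR1+/+, was below 0 for 6 of the 9, Faah, Mgll, Naaa, Cnr2, Abhd12 and Gde1, and above 0 for 3, Napepld, Daglb and Abhd6. The median of the 9 was −0.37, beside 0.08 over all genes tested, of which 56.6% were above 0. Without hCNR1-/- replicate 4 the median of the 9 was −0.11, and without 1 of the other 7 arrays it was between −0.40 and −0.32. The signs of the small differences depend on how arrays were scaled to each other. With the 75th percentile taken over bright probes only, 7 were below 0 and 2 above, and with no scaling, which moved the median of all genes to −0.47, 8 were below 0 and 1 above. The 95% intervals of all 9 differences include 0, and they include changes as large as 1.75 upward (Napepld) and −1.35 downward (Faah) on the log2 scale.

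**Figure D1:**
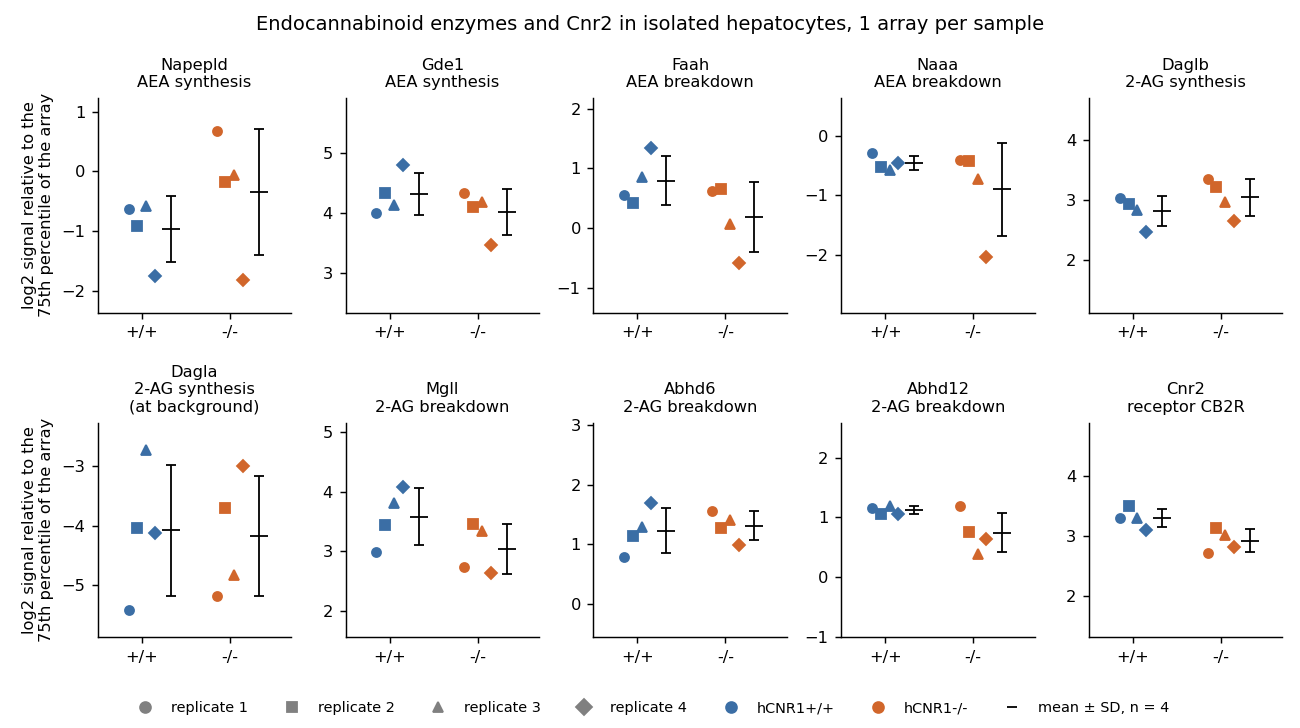
Log2 signal relative to the 75th percentile of the array (vertical axis) for the probe used for each of the 10 genes, by genotype (hCNR1+/+ in blue, hCNR1-/- in orange). Each symbol is 1 array, its shape the replicate number, and the bar is mean ± SD (n = 4). All panels have the same span on the vertical axis but start at different values. The genotypes overlap in all 10 panels, and hCNR1-/- replicate 4 is the lowest of its group for Napepld, Gde1, Faah, Naaa, Daglb, Mgll and Abhd6.

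AEA synthesis was represented by Napepld and Gde1. Napepld encodes the phospholipase D that releases AEA and other N-acylethanolamines directly from their membrane precursors. Replicates 1 to 4 of hCNR1+/+ had log2 signals of −0.62, −0.91, −0.57 and −1.76, and those of hCNR1-/- had 0.69, −0.17, −0.06 and −1.82. Of the hCNR1-/- arrays, 3 lay above every hCNR1+/+ array and the remaining 1, replicate 4, lay below all of them. On that array the probe was not well above background, and hCNR1+/+ replicate 4 was likewise the lowest of its group. The hCNR1+/+ mean was −0.97 ± 0.55 (SD, n = 4) and the hCNR1-/- mean −0.34 ± 1.06 (SD, n = 4). This gave a log2 fold change of 0.62 with a standard error of 0.50 and a 95% interval from −0.50 to 1.75. It did not pass the test (limma, adjusted p = 0.505), and the exact permutation test gave a two-sided p of 0.314. With single arrays left out it ran from 0.28 without hCNR1-/- replicate 1 (limma, unadjusted p = 0.577) to 1.12 without hCNR1-/- replicate 4 (limma, unadjusted p = 0.0106, adjusted p = 0.0642), and it was 0.36 without hCNR1+/+ replicate 4. With no scaling between arrays it was 0.07. Without replicate 4 of both genotypes, an alternative chosen after seeing the data, it was 0.85 (limma, adjusted p = 0.0472), and with limma's array weights it was 0.83 (adjusted p = 0.0459). Napepld was the only one of the 9 to pass the adjusted threshold under any alternative, and only under these last 2. Many genes were called higher there, 1701 of 11072 without replicate 4 and 2176 of 11072 with array weights. The call is thus not particular to Napepld.

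Gde1 encodes a glycerophosphodiesterase that acts in a parallel route, on the glycerophospho-N-acylethanolamine intermediate. In replicate order its log2 signals were 4.0, 4.34, 4.13 and 4.80 on hCNR1+/+ arrays against 4.33, 4.10, 4.19 and 3.46 on hCNR1-/- arrays. The groups overlapped over most of their range, with replicate 4 the highest hCNR1+/+ array and the lowest hCNR1-/- array. A log2 fold change of −0.30 was fitted, with a standard error of 0.27 and a 95% interval from −0.90 to 0.30 (limma, adjusted p = 0.550). The exact permutation test gave a two-sided p of 0.371. Leaving out replicate 4 moved it towards 0, to −0.14 without that of hCNR1+/+ and −0.11 without that of hCNR1-/-, and to 0.05 without both.

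AEA breakdown was represented by Faah and Naaa. Faah encodes fatty acid amide hydrolase, the main enzyme that ends AEA signalling. The hCNR1+/+ replicates 1 to 4 read 0.56, 0.42, 0.86 and 1.35 on the log2 signal scale, and the hCNR1-/- replicates read 0.61, 0.65, 0.06 and −0.59. Both lower hCNR1-/- values, of replicates 3 and 4, lay below every hCNR1+/+ array, and the other 2 lay within the hCNR1+/+ range. The means were 0.80 ± 0.41 (SD, n = 4) and 0.18 ± 0.58 (SD, n = 4). With −0.61, Faah had the lowest log2 fold change of the 9, with a standard error of 0.33 and a 95% interval from −1.35 to 0.12. It did not pass the test (limma, unadjusted p = 0.0933, adjusted p = 0.313), and the exact permutation test gave a two-sided p of 0.171. Of all genes tested, 11.4% had a lower log2 fold change. The probe was not well above background on hCNR1-/- replicate 4, and without that array the log2 fold change was −0.36. Without replicate 4 of both genotypes it was −0.17.

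Naaa encodes N-acylethanolamine acid amidase, a lysosomal hydrolase that prefers palmitoylethanolamide to AEA. Log2 signals of Naaa were −0.30, −0.52, −0.57 and −0.46 over hCNR1+/+ replicates 1 to 4, beside −0.41, −0.42, −0.73 and −2.04 over those of hCNR1-/-. A single array, hCNR1-/- replicate 4, lay far below the others, and on it the probe was not well above background. Its log2 fold change of −0.44 had a standard error of 0.35 and a 95% interval from −1.23 to 0.35 (limma, adjusted p = 0.505), and the exact permutation test gave a two-sided p of 0.314. Without that array it was −0.06.

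2-AG synthesis was represented by the diacylglycerol lipases Dagla and Daglb. Dagla, known as the main 2-AG synthase of neurons, was well above background on no array of either genotype and was not tested. Its deposited intensities were 3.12 to 16.7 in hCNR1+/+ and 3.30 to 6.13 in hCNR1-/- samples. Daglb, which is known for 2-AG synthesis in macrophages and other peripheral cells, was printed as 10 spots per array, and 9 or 10 of them were used. The SD between these spots was 0.03 to 0.08 on the log2 scale, less than the SD between samples. On hCNR1+/+ arrays 1 to 4 the mean log2 signal of these spots was 3.04, 2.93, 2.83 and 2.47, and on hCNR1-/- arrays it was 3.36, 3.22, 2.96 and 2.64. The hCNR1-/- values of replicates 1 and 2 were above every hCNR1+/+ array, and replicates 3 and 4 fell within the hCNR1+/+ range. The means were 2.82 ± 0.25 (SD, n = 4) and 3.05 ± 0.31 (SD, n = 4). Daglb had a log2 fold change of 0.23, and of −0.33 with no scaling between arrays. With scaling the standard error was 0.23 and the 95% interval ran from −0.29 to 0.75 (limma, adjusted p = 0.600), and the exact permutation test gave a two-sided p of 0.286. Relative to the median of all genes the unscaled value was 0.15. Single arrays moved the scaled value to 0.11 without hCNR1+/+ replicate 4, 0.13 without hCNR1-/- replicate 1 and 0.36 without hCNR1-/- replicate 4.

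2-AG breakdown was represented by Mgll, Abhd6 and Abhd12. Mgll encodes monoacylglycerol lipase, which hydrolyses most 2-AG and feeds its arachidonic acid into prostaglandin synthesis. The brightest of its 4 probes, A_55_P2063316, had log2 signals of 2.98, 3.43, 3.82 and 4.08 over the hCNR1+/+ replicates and 2.73, 3.45, 3.34 and 2.64 over the hCNR1-/- replicates, 1 to 4 in order. Replicates 1 and 4 of hCNR1-/- lay below every hCNR1+/+ array, and replicates 2 and 3 lay within the hCNR1+/+ range. The means were 3.58 ± 0.48 (SD, n = 4) and 3.04 ± 0.42 (SD, n = 4). Mgll thus had a log2 fold change of −0.54 with a standard error of 0.30 and a 95% interval from −1.22 to 0.14. It did not pass the test (limma, unadjusted p = 0.107, adjusted p = 0.335), and the exact permutation test gave a two-sided p of 0.143. The log2 fold change was −0.24 without replicate 4 of both genotypes. Of the other 3 Mgll probes, A_55_P2063311 was well above background on no array. The remaining pair had log2 fold changes of −0.36 (A_55_P2114863, limma, unadjusted p = 0.303) and −0.25 (A_55_P2063312, limma, unadjusted p = 0.333), with the same sign as the brightest probe.

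Abhd6 encodes a serine hydrolase of the plasma membrane that hydrolyses 2-AG close to its site of synthesis. With its brighter probe, A_55_P2029366, the log2 signals were 0.79, 1.14, 1.30 and 1.69 for hCNR1+/+ replicates 1 to 4. For hCNR1-/- they were 1.57, 1.28, 1.41 and 0.99, all within the hCNR1+/+ range. The fitted difference was 0.08 on the log2 scale, and its sign turned under 3 of the scalings and with either genotype's replicate 1 left out. Its standard error was 0.24 and its 95% interval −0.47 to 0.63 (limma, adjusted p = 0.875), and the exact permutation test gave a two-sided p of 0.743. The second Abhd6 probe, A_55_P1984675, gave −0.01 (limma, unadjusted p = 0.972).

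**Figure D2:**
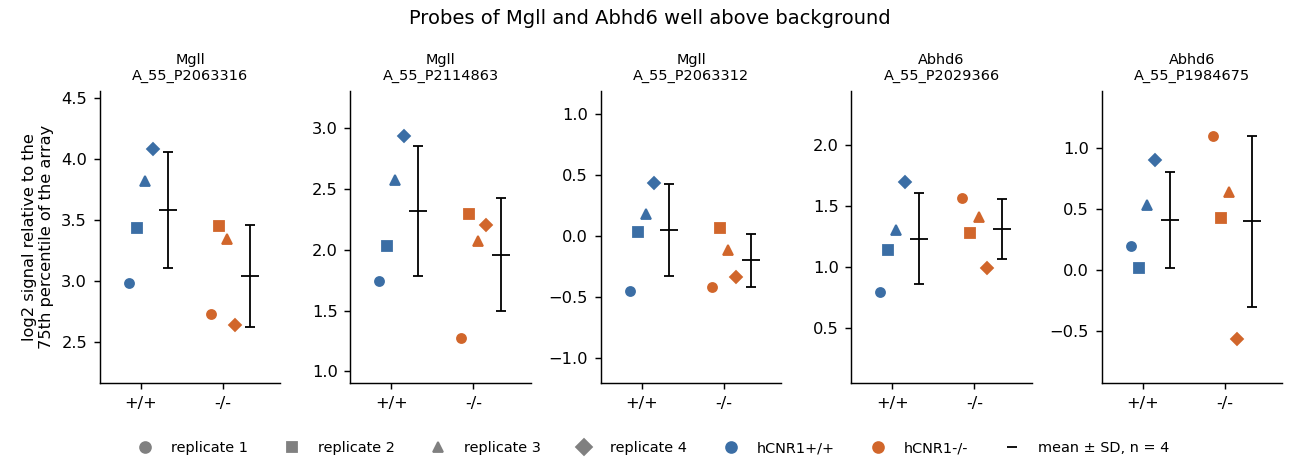
Log2 signal relative to the 75th percentile of the array (vertical axis) for the 3 Mgll probes and the 2 Abhd6 probes that were well above background, by genotype. Symbols are arrays, shaped by replicate number, and bars are mean ± SD (n = 4). Mean hCNR1-/- signals are below hCNR1+/+ for all 3 Mgll probes, with log2 fold changes of −0.54, −0.36 and −0.25, within the spread of the arrays, and the 2 Abhd6 probes differ by 0.08 and −0.01.

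Abhd12 encodes a related hydrolase that also acts on lysophosphatidylserine and whose loss causes an inherited neurological disorder. Abhd12 read 1.16, 1.06, 1.19 and 1.06 in log2 signal over hCNR1+/+ replicates 1 to 4, while hCNR1-/- replicates read 1.19, 0.76, 0.39 and 0.65. The hCNR1+/+ arrays lay close together, and 3 of the 4 hCNR1-/- arrays lay below all of them while replicate 1 lay at their upper end. The means were 1.12 ± 0.07 (SD, n = 4) and 0.74 ± 0.33 (SD, n = 4). Between them lay a log2 fold change of −0.37 with a standard error of 0.22 and a 95% interval from −0.86 to 0.11. It did not pass the test (limma, unadjusted p = 0.115, adjusted p = 0.35), and the exact permutation test gave a two-sided p of 0.114.

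Cnr2 encodes CB2R, the other main receptor of AEA and 2-AG, and was not targeted in these mice. Its single probe was well above background on all 8 arrays, with deposited intensities of 535 to 1571 in hCNR1+/+ and 206 to 810 in hCNR1-/- samples. Its log2 signals were 3.31, 3.49, 3.30 and 3.11 over hCNR1+/+ replicates 1 to 4, against 2.71, 3.13, 3.01 and 2.81 over hCNR1-/- replicates. Of the hCNR1-/- arrays, 3 lay below every hCNR1+/+ array, and replicate 2 lay just above the lowest hCNR1+/+ array, replicate 4. The means were 3.30 ± 0.16 (SD, n = 4) and 2.92 ± 0.19 (SD, n = 4), a ratio of 0.766 between hCNR1-/- and hCNR1+/+ samples. As a log2 fold change this was −0.38, with a standard error of 0.19 and a 95% interval from −0.82 to 0.05. This was the lowest p among the 9 genes and did not pass the threshold (limma, unadjusted p = 0.0784, adjusted p = 0.289). The exact permutation test over the 70 ways to assign 4 of 8 arrays gave a two-sided p of 0.0571, where 0.0286 is the smallest it can give. With single arrays left out, its log2 fold change ran from −0.46 to −0.31. Its adjusted p stayed above 0.05 under all 23 alternatives run, the lowest being 0.0854 with array weights.

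Since CB2R is known from macrophages and B cells, markers of these cells were set beside Cnr2. Of 13 Kupffer cell markers, the resident macrophages of the liver, 9 were tested, and all 9 had log2 fold changes below 0, with a median of −0.83. Of these, 5 had an unadjusted p below 0.05 and 1, Marco, an adjusted p below 0.05 (limma). Over all genes tested, 6.92% were lower at the unadjusted threshold and 1.30% at the adjusted threshold. The mean log2 signal of the 9 markers ran from 1.29 to 2.60 in hCNR1+/+ and from 0.30 to 1.21 in hCNR1-/- samples, without overlap. Among all single genes tested, 17.8% separated likewise. Inside each genotype the order of arrays differed between markers and Cnr2. With the highest marker mean of its genotype (2.602), hCNR1+/+ replicate 4 gave the lowest Cnr2 log2 signal (3.108). With the lowest marker mean (0.296), hCNR1-/- replicate 2 gave the highest Cnr2 log2 signal (3.133). On the remaining arrays of each genotype, the highest marker mean and the highest Cnr2 log2 signal fell together. Timd4 and Cd163, both defining Kupffer cell markers, were well above background on no array. The brighter Adgre1 probe was well above background on 3 hCNR1+/+ arrays and 0 hCNR1-/- arrays, and Lyz2 on 1 and 0, so neither was tested. The B cell markers Cd79a, Cd79b and Ms4a1 were well above background on no array, and Pax5, Cr2 and Blk on 1 hCNR1+/+ array each, so none of these was tested. The part of Kupffer cell RNA in the Cnr2 values was not tested. In these bulk preparations, fewer cells of a type and less RNA per cell cannot be told apart.

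**Figure D3:**
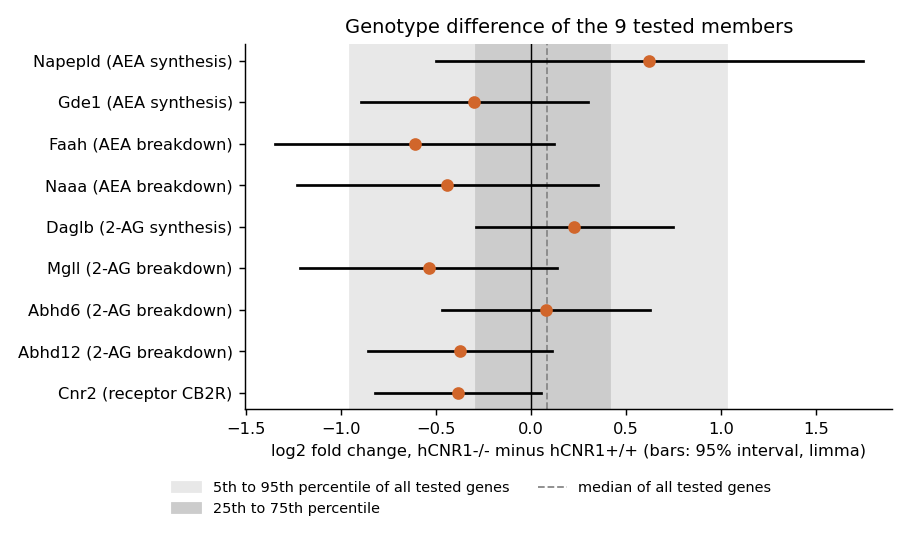
Fitted log2 fold change, hCNR1-/- minus hCNR1+/+ (horizontal axis), of the 9 tested genes with their 95% intervals from limma (bars, n = 4 arrays per genotype). Grey bands mark the middle 50% and middle 90% of all 11072 tested genes and the dashed line their median, 0.08. All 9 intervals cross 0, and Napepld has the widest, −0.50 to 1.75. All 9 points lie within the 90% band, and the signs of Daglb and Abhd6 turn when arrays are not scaled.

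Breakdown and synthesis enzymes were also set against each other on the same array, where scaling between arrays cancels. A difference between probes has no meaning as a level, so only its change between genotypes is read. For AEA, Faah minus Napepld was 1.18, 1.33, 1.43 and 3.11 on hCNR1+/+ arrays 1 to 4, beside −0.07, 0.82, 0.12 and 1.23 on hCNR1-/- arrays. The means were 1.76 ± 0.90 (SD, n = 4) and 0.53 ± 0.61 (SD, n = 4), a difference of −1.24 on the log2 scale. The genotypes overlapped by 1 array, since hCNR1-/- replicate 4 lay above hCNR1+/+ replicate 1, but neither Faah nor Napepld was well above background on that hCNR1-/- array. Leaving out single arrays gave differences from −1.47 to −0.79, and the normexp background correction gave −0.74. For 2-AG, Mgll minus Daglb was −0.05, 0.51, 0.98 and 1.61 on hCNR1+/+ arrays, beside −0.63, 0.23, 0.38 and −0.01 on hCNR1-/- arrays. The difference between the means was −0.77, with single arrays left out −1.04 to −0.48, and the arrays of the genotypes overlapped. In both of these pairs the breakdown enzyme was lower relative to the synthesis enzyme in hCNR1-/- samples on average. The pairs, chosen with earlier results known, joined the lowest and highest log2 fold changes of the 9 genes, and the next lowest and next highest. The tested enzymes left unpaired had log2 fold changes of −0.30 (Gde1, synthesis), and −0.44 (Naaa), −0.37 (Abhd12) and 0.08 (Abhd6) for breakdown. No test was run on the within-array differences, which use the same values as the single genes.

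**Figure D4:**
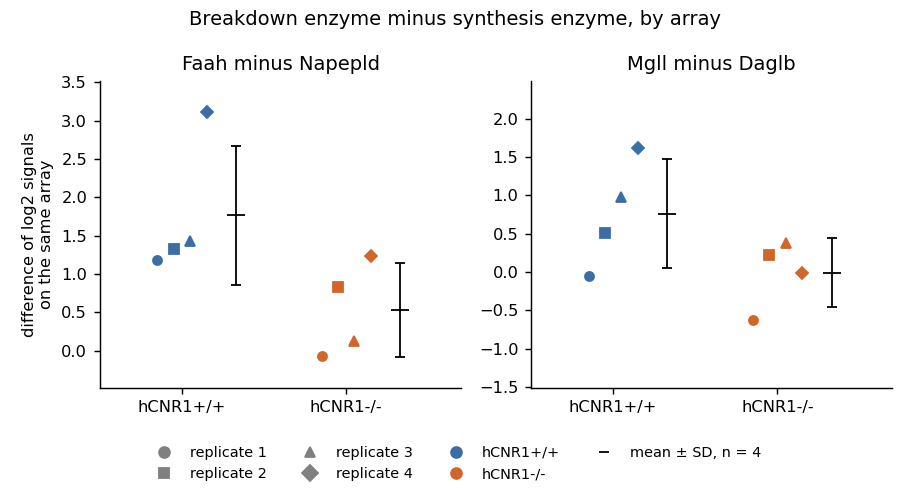
Log2 signal of a breakdown enzyme minus that of a synthesis enzyme on the same array (vertical axis), Faah minus Napepld on the left and Mgll minus Daglb on the right, by genotype. Symbols are arrays and bars are mean ± SD (n = 4). The hCNR1-/- means lie lower by 1.24 and 0.77, hCNR1+/+ replicate 4 is the highest array in both panels, and the genotypes overlap in both.

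Within the group, some genes moved together from array to array. Over the 8 arrays the log2 signals of Napepld and Daglb had a Pearson correlation of 0.92, those of Faah and Gde1 of 0.84 and those of Faah and Naaa of 0.81, given as descriptions without a test. Cnr2 correlated with none of the enzymes beyond 0.55, its value with Mgll. These arrays share a slide, and several of the genes share a low value on the dim hCNR1-/- replicate 4. Among all other tested genes, the patterns most like Cnr2 were those of Mapk8ip3 (correlation 0.96 over 8 arrays) and Cyp3a16 (0.94). The closest to Faah were Cstf2t (0.98) and Lipt1 (0.98), to Mgll Fes (0.99) and Ces1f (0.99), and to Napepld Cdca8 (0.98) and Abcc5 (0.97). Daglb was closest to Mcm2 (0.99) and Slc25a37 (0.99), Gde1 to Isca1 (0.99) and Morc2a (0.98), and Naaa to Marchf5 (0.996) and Galk2 (0.99). Abhd6 was closest to Lefty1 (0.97) and Acer2 (0.96), and Abhd12 had the loosest matches, Tnnc1 (0.94) and Rarg (0.94).

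The wider pathway was followed in 36 further genes, of which 15 were tested. Of these, 10 had log2 fold changes below 0 and 5 above, with a median of −0.20. That median was 0.02 without hCNR1-/- replicate 4, −0.04 without either hCNR1-/- replicate 1 or hCNR1+/+ replicate 4, and 0.01 with array weights. At an unadjusted p below 0.05, 3 of the 15 were lower and 2 higher, beside 6.92% and 14.7% of all genes tested (limma). At an adjusted p below 0.05, 1 was lower and 0 were higher, beside 1.30% and 2.94% of all genes tested. For parallel steps of N-acylethanolamine synthesis, 4 of 9 genes were tested and 3 were below 0. One of them, Inpp5d, was called lower in hCNR1-/- samples. It encodes the inositol phosphatase SHIP1, best known from blood cells and also proposed to act on phospho-AEA. The log2 signals of Inpp5d were −1.23, −1.26, −0.93 and −0.45 over hCNR1+/+ replicates, all above the −1.65, −2.31, −2.0 and −2.24 of hCNR1-/- replicates. It had a log2 fold change of −1.08 with a standard error of 0.25 (limma, adjusted p = 0.0477), and the exact permutation test gave a two-sided p of 0.0286. Its probe was well above background on 4 hCNR1+/+ arrays and 2 hCNR1-/- arrays, and the Kupffer cell markers, whose part was not tested, moved the same way. The call was lost under 15 of 21 alternatives, with adjusted p up to 0.694 under normexp, and when any single array other than hCNR1-/- replicate 4 was left out (adjusted p 0.0754 to 0.140). Gdpd1, a lysophospholipase D of the same synthesis route, also separated without overlap, as did 17.8% of all genes tested. Its log2 fold change of −0.93 did not pass the test (limma, adjusted p = 0.158) and was −0.26 with normexp. The Gdpd1 probe was well above background on 4 hCNR1+/+ arrays and 2 hCNR1-/- arrays.

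Upstream of 2-AG, 3 of 6 phospholipase C genes were tested, and 0 passed at the adjusted threshold. Plcb2 had a log2 fold change of 0.58 (limma, unadjusted p = 0.0289, adjusted p = 0.175), which was 0.02 with no scaling and 0.21 with normexp. The Plcb2 probe used was well above background on only 2 arrays of each genotype. Plcb1, singled out after its values were seen, had 1 of its 2 probes well above background, on 2 hCNR1-/- arrays and no hCNR1+/+ array. The second probe was well above background on none, and no fold change is given. Of 7 further enzymes that act on AEA, 2-AG or their products, 3 were tested. Acsl4 activates the arachidonic acid that hydrolysis of AEA and 2-AG frees. Its log2 signals were 1.93, 1.24, 0.02 and −2.14 over hCNR1+/+ replicates, against 2.52, 2.49, 2.57 and 3.19 over hCNR1-/- replicates. The Acsl4 probe was well above background on 3 hCNR1+/+ arrays and 4 hCNR1-/- arrays. The hCNR1-/- arrays all lay above the hCNR1+/+ arrays, which spread widely, and 17.8% of all genes tested separated without overlap. The log2 fold change of 2.43 did not pass the adjusted threshold (limma, unadjusted p = 0.00887, adjusted p = 0.0971). This fold change was 1.63 without hCNR1+/+ replicate 4 and 1.49 with normexp. It was 1.46 without replicate 4 of both genotypes (limma, adjusted p = 0.0472), an alternative chosen after seeing the data. Under that alternative 1701 of 11072 genes were called higher. Ces1g, a liver carboxylesterase, had a log2 fold change of −1.37 (limma, adjusted p = 0.171), which is uncertain because its close paralogs may bind the same probe. It was −0.89 without hCNR1+/+ replicate 4 and −0.61 without replicate 4 of both genotypes. The 3 tested lipid carriers, Fabp1, Fabp5 and Scp2, had log2 fold changes from −0.40 to −0.20 and none passed. Of 9 receptors and CB1R-binding proteins, 6 were well above background on no array, Cnr1 among them. The 2 tested, Ppara and Pparg, had log2 fold changes of 0.03 and 0.25 (limma, adjusted p = 0.964 and 0.546), the latter −0.30 without scaling.

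**Figure D5:**
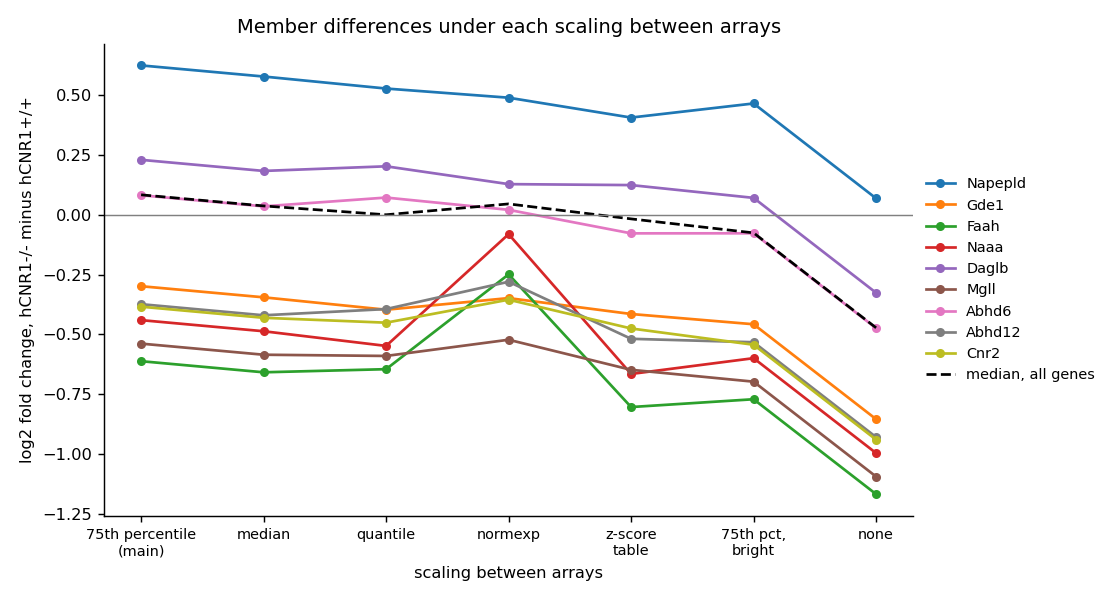
Fitted log2 fold change, hCNR1-/- minus hCNR1+/+ (vertical axis), of the 9 tested genes under 7 ways of scaling arrays to each other (horizontal axis). The dashed line is the median of all tested genes. That median runs from 0.08 (left) to −0.47 (right). Napepld stays above 0 under all 7 and 6 genes stay below 0, while Abhd6 lies below 0 under 3 of them and Daglb under 1.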

How the data were processed

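For each array the authors deposited spot intensities from Feature Extraction version 12.0.3.1, which subtracts the background within an array and does not scale arrays to each other. A deposited score per spot was, to within 0.005, the array's own z-score of the log intensity (column medians −0.63 to −0.49). The study names a normalized z-score for its heat map and refers to earlier work for the array analysis, and its text does not give the test. Here log2 intensities were expressed relative to the 75th percentile over the array's 59305 non-control spots, outlier spots were dropped, and spots of a probe were averaged. A probe was called well above background where 50% or more of its spots had that flag. Gene names came from RefSeq (assembly GRCm38.p6) through the unversioned accession of each probe. The array design names an older build, so no coordinates are given.

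A gene was represented by its brightest probe and tested if 4 or more arrays called it well above background, which left 11072 genes. Genotypes were compared two-sided on all 8 arrays with limma (version 3.58.1, R version 4.3.3, lmFit and eBayes, Benjamini-Hochberg adjustment), and single genes also by exact permutation of the 70 possible assignments. The limma fit was also run on simulated independent normal values with known changes. These had no dim array and no shift between arrays, so that run does not bear on the scaling. Groups and replicate numbers came from the sample labels. The genes, the pathway and marker lists and the tests were chosen with earlier results of these data known. The text names all 10 genes with their probes and Cnr1, and pathway genes with an adjusted p below 0.05 or among the 3 lowest unadjusted p in each direction. For each tested gene it also names the 2 genes of highest correlation. Alternatives were other scalings, the deposited scores, normexp background correction with an offset of 50 on the median signal of each spot, other filters on dim probes, each probe or the mean of probes, trended robust variance, array weights, a replicate block and single arrays left out. All arrays lay on 1 slide, so a slide block could not be fitted. The number of arrays and, for dim probes, the background limit the precision. A marker gene of the lists is not reported here. No probe or protein sequences were used here.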

Additional observations from a re-analysis of the deposited data

Results flagged for a closer look

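Of 58 groups of 4 arrays examined (each tested probe, tested pathway gene and within-array difference, by genotype), 3 held an array far from the other 3, with a gap to its nearest neighbour above Dixon's 95% critical share of the group's range. Chance gives this in about 1 in 20 groups. In hCNR1+/+ samples, Faah minus Napepld was 3.105 in replicate 4, against 1.182 to 1.431 in the other 3. In hCNR1-/- samples, the log2 signal of Acsl4 was 3.185 in replicate 4, the dimmest array, against 2.491 to 2.569 in the other 3. In hCNR1-/- samples, the log2 signal of Ppara, a nuclear receptor for N-acylethanolamines, was 4.146 in replicate 2, against 4.291 to 4.298 in the other 3, a gap that is small beside the hCNR1+/+ spread of 3.82 to 4.88.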

How the results depend on the processing

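Of the 9 tested genes, 0 were called lower at the adjusted threshold under every alternative, and 1, Napepld, was called higher with array weights and without replicate 4 of both genotypes. Of all 11072 genes tested, 2176 and 1701 were called higher under these alternatives. At an unadjusted p below 0.05, 4 were lower with the percentile over bright probes (Faah, Mgll, Abhd12 and Cnr2), and 1 was lower with array weights and without replicate 4, while 1 was higher under each of these last 2. With bright probes the median of all genes also moved down, to −0.076, and 67.4% of the adjusted calls were lower. The shares of all genes at the unadjusted threshold under these alternatives are not given, so these counts are not read as results about the 9 genes. With single arrays left out, 0 to 1 were lower and 0 to 1 higher at the unadjusted threshold. Signs reversed for Daglb with no scaling (−0.33), for Gde1 without replicate 4 (0.048), for Pparg with no scaling (−0.30), and for Abhd6 with no scaling (−0.47), the percentile over bright probes (−0.078), the deposited scores (−0.078), and without hCNR1+/+ replicate 1 (−0.064) or hCNR1-/- replicate 1 (−0.0038). With replicates left out, Abhd6 ran from −0.064 to 0.34 and Gde1 from −0.40 to 0.048. Relative to the unscaled median of all genes, −0.47, the unscaled log2 fold changes were −0.70 for Faah, −0.62 for Mgll, −0.47 for Cnr2 and 0.54 for Napepld. The median of the 9 was −0.37, and −0.93 with no scaling, −0.059 with array weights and −0.058 without replicate 4, with single arrays left out −0.40 to −0.11. The pathway median was −0.20, and −0.76 with no scaling, 0.0077 with array weights and 0.034 without replicate 4, with single arrays left out −0.40 to 0.016. The cause of these changes was not tested.

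Over all genes, 144 were lower and 325 higher. These counts were 83 and 133 with quantile normalization, 25 and 25 with median scaling, 29 and 1 with no scaling, 209 and 101 with bright probes, 51 and 30 with the deposited scores and 13 and 28 with normexp. The share lower among the calls was 30.7%, against 38.4%, 50%, 96.7%, 67.4%, 63.0% and 31.7% in the same order. The counts were 14 and 8 with no filter, 54 and 341 with probes above background on all arrays, 692 and 889 with each probe on its own, 646 and 2176 with array weights, and 480 and 1701 without replicate 4. With single arrays left out they ran from 25 to 323 lower and from 13 to 1121 higher, lowest without hCNR1+/+ replicate 3 and highest without hCNR1-/- replicate 4. Samples with the same replicate number did not deviate together (correlations −0.157 to 0.211 over genes), so the numbers, which are also the slide columns, were not taken to pair them. With the replicate block 0 genes were lower and 0 higher over all genes, the 9 fold changes were as before, and Inpp5d lost its call (limma, adjusted p = 0.118).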

Other observations

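Markers of other liver cells were read on the same arrays. All 6 endothelial markers were tested, 4 with log2 fold changes below 0 and 2 above, and 0 passed the adjusted threshold (limma). Of 8 stellate cell markers 2 were tested, of 7 T and NK cell markers 2, of 5 cholangiocyte markers 2, and of the 4 neutrophil markers on the array 1, none with an adjusted p below 0.05 (limma). At an unadjusted p below 0.05, 1 endothelial marker and the neutrophil marker were lower and 1 T and NK cell marker was higher. These are single genes of their lists and are not read as changes of a cell type. In the same lists, 2 neutrophil and 4 T and NK cell markers were well above background on no array. Of the 12 hepatocyte markers, 8 were below 0 and 4 above, with a median of −0.13, and 1 of them was higher at the adjusted threshold.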
